A study of Mus musculus with 5 samples.

Results

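A set of 10 genes of the NF-kB system was followed in Th2 cells, namely the 5 that encode the NF-kB subunits (Nfkb1, Rela, Rel, Nfkb2 and Relb) and 5 that encode its inhibitors, cofactors and feedback regulators (Nfkbia, Nfkbiz, Bcl3, Tnfaip3 and Traf1). They were looked up by name among the 11608 lines of the gene table, and a line was accepted only where its chromosome and coordinates lay at the mm9 locus of the gene. All 10 of the 10 genes sought had such a line, and all 10 had an enriched interval in each of the 4 libraries. The position check mattered because gene names did not always fit the coordinates. Of 3637 lines with no interval in either Parp14+/+ library, 2776 carried a name found in the annotation, and in 295 of these the name fitted the position. Of 7971 lines with such an interval, 6446 carried a name found there and 6437 fitted.

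Chromatin immunoprecipitation and sequencing (ChIP-Seq) was performed on in vitro differentiated Th2 cells with an antibody to RNA Polymerase II phosphorylated at serine 2 of its tail repeats, the form of the enzyme that travels along gene bodies. Naive CD4+ T cells came from spleens of C57BL/6 wild-type mice (Parp14+/+) and of mice lacking the ADP-ribosyltransferase PARP-14 (Parp14-/-) on the same background, 6 to 8 weeks old. All cultures were activated through CD3 and CD28 for 3 days with IL-4 at 10 ng/ml and an antibody to IFN-g, and then expanded for 4 days with IL-2 and IL-4. Each genotype was studied untreated and with PJ34, an inhibitor of PARP enzymes that is not specific to PARP-14, which gives 4 conditions with 1 library each, plus an Input library of chromatin from both genotypes. The labels give a PJ34 dose of 10 µM and describe treatment of cells already differentiated, whereas the methods of the study give a lower dose and culture in its presence. How many animals gave cells to a library is not given in the sources used here. With 1 library per condition there was no replicate error, so no test between conditions was run, and a difference in a library cannot be told apart from a difference between cultures. All fold values below carry a 95% counting interval, computed from the summed heights by the exact binomial method of Clopper and Pearson, which covers counting error only.

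NF-kB proteins are dimers of the 5 subunits that bind kB sites in DNA. In resting cells they are held in the cytoplasm by inhibitors of the IkB family, and signals from the T cell receptor, CD28 and TNF family receptors lead to phosphorylation and loss of those inhibitors. Several of the genes that NF-kB switches on encode its own inhibitors and subunits, so the pathway limits and renews itself. In T cells NF-kB takes part in activation, survival and cytokine expression, including the induction of Gata3 in Th2 development.

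The kB site is the sequence through which this feedback is known to act, so promoters were searched for the kB consensus on both strands. The window from 1000 bases before to 100 bases after the gene start held a match in 8 of the 10 genes, against 25.9% of 11605 promoters of the table. In the narrower window from 250 bases before to 50 after, the count was also 8 of 10, against 10.2% of promoters. The members include known NF-kB targets, and the promoters were not matched for base composition, so the comparison is a description only. Rela and Traf1 had no match in either window, which says only that these letters are not there. The match nearest to the gene start is shown for each of the other genes, because these are the candidate sites of the feedback loop. Each line runs 5′ to 3′ on the strand of the gene, with the match in capitals and 10 bases on each side.
Nfkb1: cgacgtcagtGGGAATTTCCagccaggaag
Rel: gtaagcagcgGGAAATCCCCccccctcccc
Nfkb2: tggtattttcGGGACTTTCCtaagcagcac
Relb: cggcggcgccGGGGAATTCCgccgccccgc
Nfkbia: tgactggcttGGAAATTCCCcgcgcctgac
Nfkbiz: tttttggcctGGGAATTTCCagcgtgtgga
Bcl3: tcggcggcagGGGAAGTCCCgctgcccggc
Tnfaip3: aatttccatcGGAAATCCCCctgttggcaa
These stretches lie at chr3:135354461-135354490 (minus strand), chr11:23671041-23671070 (minus), chr19:46380185-46380214 (plus), chr7:20214792-20214821 (minus), chr12:56593644-56593673 (minus), chr16:55838963-55838992 (minus), chr7:20408083-20408112 (minus) and chr10:18735209-18735238 (minus) of mm9, in the order shown.

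The first base of the shown match lay 31 bases after the gene start in Nfkb1 and 87 after it in Nfkb2. It lay 15 bases before the start in Nfkbiz, 24 in Relb, 38 in Bcl3, 55 in Tnfaip3, 90 in Rel and 93 in Nfkbia. The Rel, Nfkbia and Tnfaip3 matches read as the consensus on the opposite strand. Nfkb2 held matches starting at 7 positions of the wider window, some of them overlapping, Rel and Nfkbia at 3 each, Relb, Bcl3 and Tnfaip3 at 2 each, and Nfkb1 and Nfkbiz at 1 each. In Nfkb1, Rel, Nfkb2, Relb and Tnfaip3 the shown match lay inside an enriched polymerase interval in all 4 libraries. In Nfkbia and Bcl3 this was so in 3 of 4 libraries, all but Parp14+/+ for Nfkbia and all but Parp14+/+ + PJ34 for Bcl3. The Nfkbiz match lay in no interval of any of the 4 libraries, since no interval reached the start of that gene. A sequence match is a description, and binding of NF-kB was not measured.

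**Figure D1:**
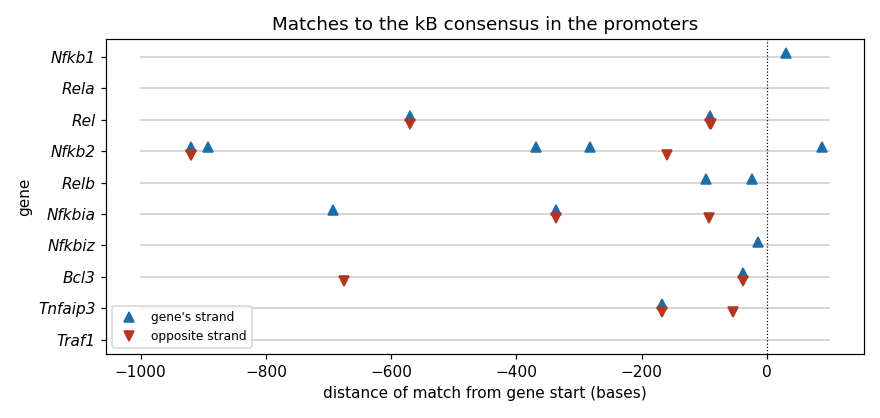
Positions of matches to the kB consensus in the 10 promoters, plotted by distance in bases of the first base of the match from the gene start, with triangles for the gene's strand and the opposite strand and grey lines for the window searched. In 8 genes at least 1 match lies within 100 bases of the start, Nfkb2 has 7 start positions, and Rela and Traf1 have none.

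The measure of each gene was the average peak height of the deposited table, which is the highest pile-up of fragments in each active region of the gene, averaged over its regions. An active region is a stretch where intervals of the libraries in the table were merged. All libraries were reduced by the authors to equal numbers of alignments before this step. Average peak heights of the 10 genes ran from 19 to 92 fragments in Parp14+/+ (18.5 to 64 with PJ34) and from 16.5 to 80 in Parp14-/- (16 to 66 with PJ34). The lowest of them exceeded 77.4% to 80.9% of the genes with an interval, whose median height was 8.5 to 10. By this measure the NF-kB genes were thus among the genes with much elongating polymerase in all 4 conditions. The measure covers whole active regions, and some of the heights lay in or beside neighbouring genes, as described below. At the start region of Rela the heights were 8 to 12 fragments. Summed over the 10 genes, the heights came to 410 fragments in Parp14+/+ and 370 with PJ34, against 374 in Parp14-/- and 340 with PJ34. No single pattern ran through all 10 genes.

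The labels and the cell type were checked first. Intervals covered 22873 bases (59.2%) of Parp14 in Parp14+/+ and 20836 (53.9%) in Parp14+/+ + PJ34, against 2686 (6.95%) and 3286 (8.51%) in Parp14-/- and Parp14-/- + PJ34, where they lay at the gene start. Of the T cell markers, Cd3e had an interval in all 4 libraries, at heights of 6.5 to 9.5 fragments, Cd4 in 3 and Cd3g in 1, and Trac had no line. The 4 Th2 markers Gata3, Il4, Il5 and Il13 had summed heights of 180 in Parp14+/+ and 151 with PJ34, against 95 in Parp14-/- and 77 with PJ34, with both Parp14-/- libraries below both Parp14+/+ libraries. The part of this difference in the NF-kB values was not tested. Cd8a had no interval in any library, nor did the B cell genes Ms4a1 and Cd79b, while Cd79a had one in all 4 libraries, at heights of 38, 36, 34 and 28. Of the 4 myeloid markers Lyz2 and Cd14 had no line, Itgam had no interval and Csf1r had one in 3 libraries at 5.5 to 8.5 fragments, and the NK cell markers had no line in the table.

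Relative to untreated Parp14+/+, the median ratio of all genes was 1.04 for Parp14+/+ + PJ34, 1.00 for Parp14-/- and 0.909 for the treated Parp14-/- cells, so heights of the last library ran low across genes and its ratios are read against that shift. A gene is called higher or lower here where its ratio was above 1.4 or below 0.7, with an interval in the higher library. These limits are the main part of the rule of the study, which also admits smaller ratios of genes with a high average value on a scale other than these heights. With bands from 1.2 to 1.4 and from 0.7 to 0.83 added at a height of at least 10 fragments, the members called between the untreated genotypes went from 2 to 7, those between the PJ34-treated genotypes from 1 to 3, those for PJ34 in Parp14+/+ from 1 to 4 and those for PJ34 in Parp14-/- from 0 to 5. The share of all genes called with these bands is not given here, so the larger counts are no result about the group. The call without the bands was also made over 8551 genes with an interval in at least 1 of the 4 libraries.

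**Figure D2:**
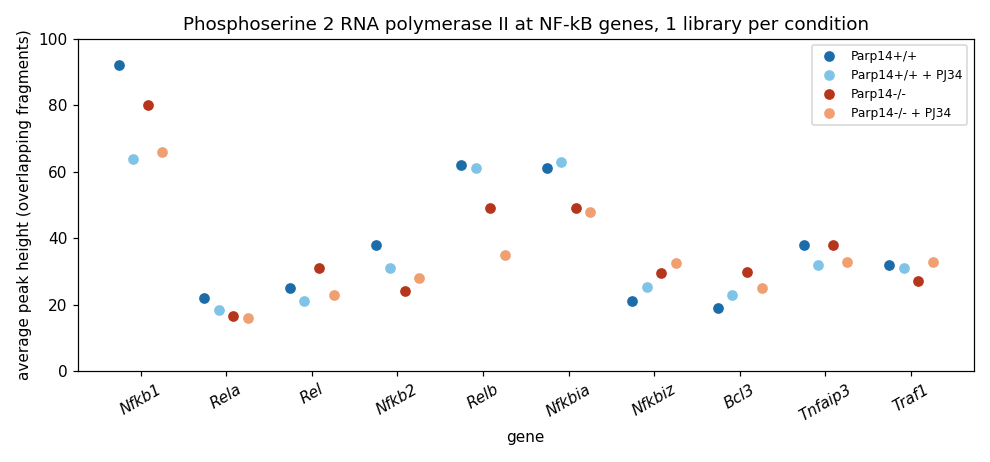
Average peak height (overlapping fragments, linear axis from 0) of each of the 10 genes in each of the 4 libraries, 1 point per library and no error bar because each condition has 1 library. Nfkb1 is highest at 92 in Parp14+/+, Relb spans 35 in Parp14-/- + PJ34 to 62 in Parp14+/+, and both Nfkbiz points of Parp14-/- lie above both points of Parp14+/+.

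Among the subunits that enter the classical dimers, Nfkb1 carried the highest signal. Nfkb1 (chr3:135247619-135354511, minus strand) encodes p105, the precursor of p50. Its height was 92 fragments in Parp14+/+ and 64 with PJ34, against 80 in Parp14-/- and 66 with PJ34. The untreated libraries were the high ones in both genotypes. The ratio of untreated to PJ34-treated heights was 1.44 (1.03 to 2.01) in Parp14+/+, past the limit and with a counting interval above 1, and 1.21 (0.864 to 1.71) in Parp14-/-. Between the genotypes the ratio of Parp14+/+ to Parp14-/- was 1.15 (0.843 to 1.57) untreated and 0.970 (0.677 to 1.39) with PJ34.

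Along Nfkb1 an unbroken interval covered all 106893 bases of the gene in each library and ran on past its end by 5518 to 8368 bases. The highest point lay 930 to 1378 bases beyond the annotated end in 3 libraries. In Parp14+/+ + PJ34 it lay in an intron, 46494 bases before the end. The lower height of that library thus belonged to another place in the gene than the heights it was compared with, and the height of that library beyond the gene end was at most 64.

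Rela (chr19:5637490-5648130, plus strand), which encodes p65, the main activating subunit, had low heights within the group, the lowest of the 10 genes in all libraries but untreated Parp14+/+. They were 22 fragments in Parp14+/+ and 18.5 with PJ34, against 16.5 in Parp14-/- and 16 with PJ34, as averages over 2 active regions. The Parp14+/+ libraries were above the Parp14-/- libraries, with ratios of 1.33 (0.83 to 2.16) untreated and 1.16 (0.701 to 1.92) with PJ34. With the libraries scaled to a median ratio of 1, the ratio with PJ34 was 1.01. Neither genotype ratio was past the limit.

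The 2 regions of Rela did not separate the genotypes alike. At the gene start the heights were 12, 8, 11 and 11 fragments in the order Parp14+/+, Parp14+/+ + PJ34, Parp14-/- and Parp14-/- + PJ34. At the 3′ end, 767 to 895 bases past the annotated end, they were 32, 29, 22 and 21, with a genotype ratio (Parp14+/+ over Parp14-/-) of 1.45 (0.819 to 2.63) untreated and 1.38 (0.761 to 2.55) with PJ34. The 3′ region also holds Sipa1 and reaches Pcnx3, which are transcribed from the other side, so its signal cannot be assigned to Rela alone. Without strand in these data the polymerases of converging genes cannot be told apart.

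Rel (chr11:23641729-23670970, minus strand) encodes c-Rel, the subunit most tied to lymphocyte activation. Its height was 25 fragments in Parp14+/+ and 21 with PJ34, against 31 in Parp14-/- and 23 with PJ34. Only the untreated Parp14-/- library stood above the others, with a genotype ratio of 0.806 (0.457 to 1.41) and an untreated to treated ratio of 1.35 (0.761 to 2.42) in Parp14-/-, both inside the limits. The line of Pus10, a convergent neighbour, has identical values because both genes share 1 active region.

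The intervals separate what the average joins. At the start of Rel the summits reached 25 fragments in Parp14+/+ and 14, 15 and 14 in Parp14+/+ + PJ34, Parp14-/- and Parp14-/- + PJ34. A further summit about 16500 bases into the gene was 22, 16 and 23 fragments in Parp14+/+, Parp14+/+ + PJ34 and Parp14-/- + PJ34. In Parp14+/+ + PJ34 and Parp14-/- the highest point lay 6672 and 6752 bases past the annotated end of Rel, between Rel and Pus10, at 21 and 31 fragments. The tallest value of Rel in Parp14-/- was therefore not at the Rel promoter, where Parp14+/+ was the highest of the 4 libraries.

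The subunits of the alternative pathway, in which p100 is processed to p52 and pairs with RELB, had their highest values in the Parp14+/+ libraries. Nfkb2 (chr19:46380108-46386580, plus strand) encodes p100. Its height was 38 fragments in Parp14+/+ and 31 with PJ34, against 24 in Parp14-/- and 28 with PJ34. Both Parp14+/+ libraries were above both Parp14-/- libraries. The untreated Parp14+/+ to Parp14-/- ratio of 1.58 (0.925 to 2.76) passed the limit with a counting interval that held 1, and with PJ34 the ratio was 1.11 (0.643 to 1.92), or 0.965 after the libraries were scaled to a median ratio of 1.

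Each library covered the whole of Nfkb2 with 1 interval of 15750 to 17700 bases, longer than the 6473 bases of the gene. The highest point lay in an intron of the neighbour Psd in both Parp14+/+ libraries, 2445 and 3021 bases past the end of Nfkb2, in an exon of Nfkb2 in Parp14-/- and 619 bases before its start in Parp14-/- + PJ34, in an intron of a longer annotated Nfkb2 transcript. Psd shares the active region, and the part of it in the Nfkb2 values was not tested.

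Relb (chr7:20191571-20214787, minus strand) encodes the partner of p52. Its height was 62 fragments in Parp14+/+ and 61 with PJ34, against 49 in Parp14-/- and 35 with PJ34. Parp14+/+ values were alike with and without PJ34, and both Parp14-/- values were lower. The PJ34-treated Parp14+/+ to Parp14-/- ratio was 1.74 (1.13 to 2.72), past the limit and with an interval above 1, or 1.52 after scaling to the median of all genes, and the untreated ratio was 1.27 (0.856 to 1.88). In Parp14-/- the ratio of untreated to treated was exactly at the limit, 1.4 (0.889 to 2.23), or 1.27 after scaling. In Parp14+/+ that ratio was 1.02 (0.702 to 1.47), or 1.06 after scaling.

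All 4 summits of the Relb region fell within 64 bases of each other, 1778 to 1842 bases past the end of Relb, at the 5′ end of the next gene Clasrp, in its UTR exon or the intron beside it. Clasrp reads on the same strand, and Clptm1, upstream of Relb, is reached by the same active region. At the start of Relb itself a separate interval was deposited in Parp14+/+ + PJ34 alone, with a height of 16 fragments. The difference at Relb is thus a difference at a summit at the start of its neighbour, and its height within Relb cannot be had from an interval that spans both.

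The inhibitors did not move as a group. Nfkbia (chr12:56590831-56593570, minus strand) encodes IkB-alpha, the inhibitor that NF-kB induces to end its own activity. Its height was 61 fragments in Parp14+/+ and 63 with PJ34, against 49 in Parp14-/- and 48 with PJ34. Both Parp14+/+ libraries were above both Parp14-/- libraries, by a ratio of 1.24 (0.841 to 1.85) untreated and 1.31 (0.887 to 1.95) with PJ34, or 1.14 with PJ34 after scaling. Neither ratio passed the limit, and each counting interval held 1. Ratios of untreated to treated heights were 0.968 (0.670 to 1.4) in Parp14+/+ and 1.02 (0.671 to 1.55) in Parp14-/-, and after scaling 1.01 and 0.928.

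The interval of Nfkbia was 9750 to 11850 bases long in a gene of 2740 bases and ran 6930 to 8580 bases beyond the gene end in the 4 libraries. The highest point lay 1582 to 1902 bases past the end in 3 libraries and 33 bases after the gene start in Parp14-/- + PJ34. No annotated gene lies at the 3 downstream summits.

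Nfkbiz (chr16:55811491-55838967, minus strand), which encodes IkB-zeta, a nuclear IkB protein that acts with p50 at chosen target genes, ran the other way. Its height was 21 fragments in Parp14+/+ and 25.3 with PJ34, against 29.7 in Parp14-/- and 32.7 with PJ34. Both Parp14-/- libraries were above both Parp14+/+ libraries. The untreated Parp14+/+ to Parp14-/- ratio was 0.708 (0.504 to 0.988), with an interval below 1 but not past the limit of 0.7, and with PJ34 it was 0.775 (0.567 to 1.06), or 0.676 after scaling.

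The Nfkbiz average is taken over 3 active regions, of which the 3′ region carried the signal. Its summit was 51 fragments in Parp14+/+ and 64 with PJ34, against 79 in Parp14-/- and 87 with PJ34. These 4 summits lay within 192 bases of each other, 1282 to 1474 bases past the annotated end of the gene, with no other annotated gene there. At that place the Parp14+/+ to Parp14-/- ratio was 0.646 (0.445 to 0.930) untreated and 0.736 (0.524 to 1.03) with PJ34. In the middle region Parp14+/+ alone had an interval, with a height of 5 fragments, and the region at the gene start had none in these 4 libraries. Intervals covered 41.7% to 52.1% of Nfkbiz, all in its 3′ part apart from the small one, whereas the other 9 genes were covered over 79.0% to 100% of their length in every library.

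Bcl3 (chr7:20393811-20408064, minus strand), which encodes another nuclear IkB protein and partner of p50 and p52, was also lower in untreated Parp14+/+. Its height was 19 fragments in Parp14+/+ and 23 with PJ34, against 30 in Parp14-/- and 25 with PJ34. The untreated Parp14+/+ to Parp14-/- ratio was 0.633 (0.337 to 1.16), past the limit of 0.7 with a counting interval that held 1. With PJ34 the libraries were at 23 and 25 fragments, with a ratio of 0.920 (0.499 to 1.69). All 4 summits lay in an intron of Bcl3, 5215 to 6111 bases from its start and within 896 bases of each other, where the noncoding transcript Gm16174 is also annotated.

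The 2 feedback regulators of receptor signalling stayed inside the limits in all 4 comparisons. Tnfaip3 (chr10:18720722-18735173, minus strand) encodes A20, an enzyme that edits ubiquitin chains and shuts off signalling to NF-kB. Its height was 38 fragments in Parp14+/+ and 32 with PJ34, against 38 in Parp14-/- and 33 with PJ34. The genotype ratio was 1.00 (0.621 to 1.61) untreated and 0.970 (0.577 to 1.63) with PJ34, and the PJ34 ratio was 1.19 (0.722 to 1.96) in Parp14+/+ and 1.15 (0.703 to 1.89) in Parp14-/-. In both untreated libraries the summit lay 1297 and 1361 bases past the gene end, and with PJ34 it lay in the gene, in an intron in Parp14+/+ and in a UTR exon in Parp14-/-.

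Traf1 (chr2:34798778-34817292, minus strand) encodes an adaptor of TNF receptors that NF-kB induces. Its height was 32 fragments in Parp14+/+ and 31 with PJ34, against 27 in Parp14-/- and 33 with PJ34. The lone lower library was untreated Parp14-/-, with a genotype ratio of 1.19 (0.688 to 2.06) and a PJ34 ratio in Parp14-/- of 0.818 (0.473 to 1.4). In both PJ34-treated libraries the highest point lay upstream of the gene, 1930 bases before its start in Parp14+/+ and 1941 in Parp14-/-, 11 bases apart. It lay 3321 bases past the gene end in Parp14+/+ and in an intron in Parp14-/-.

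**Figure D3:**
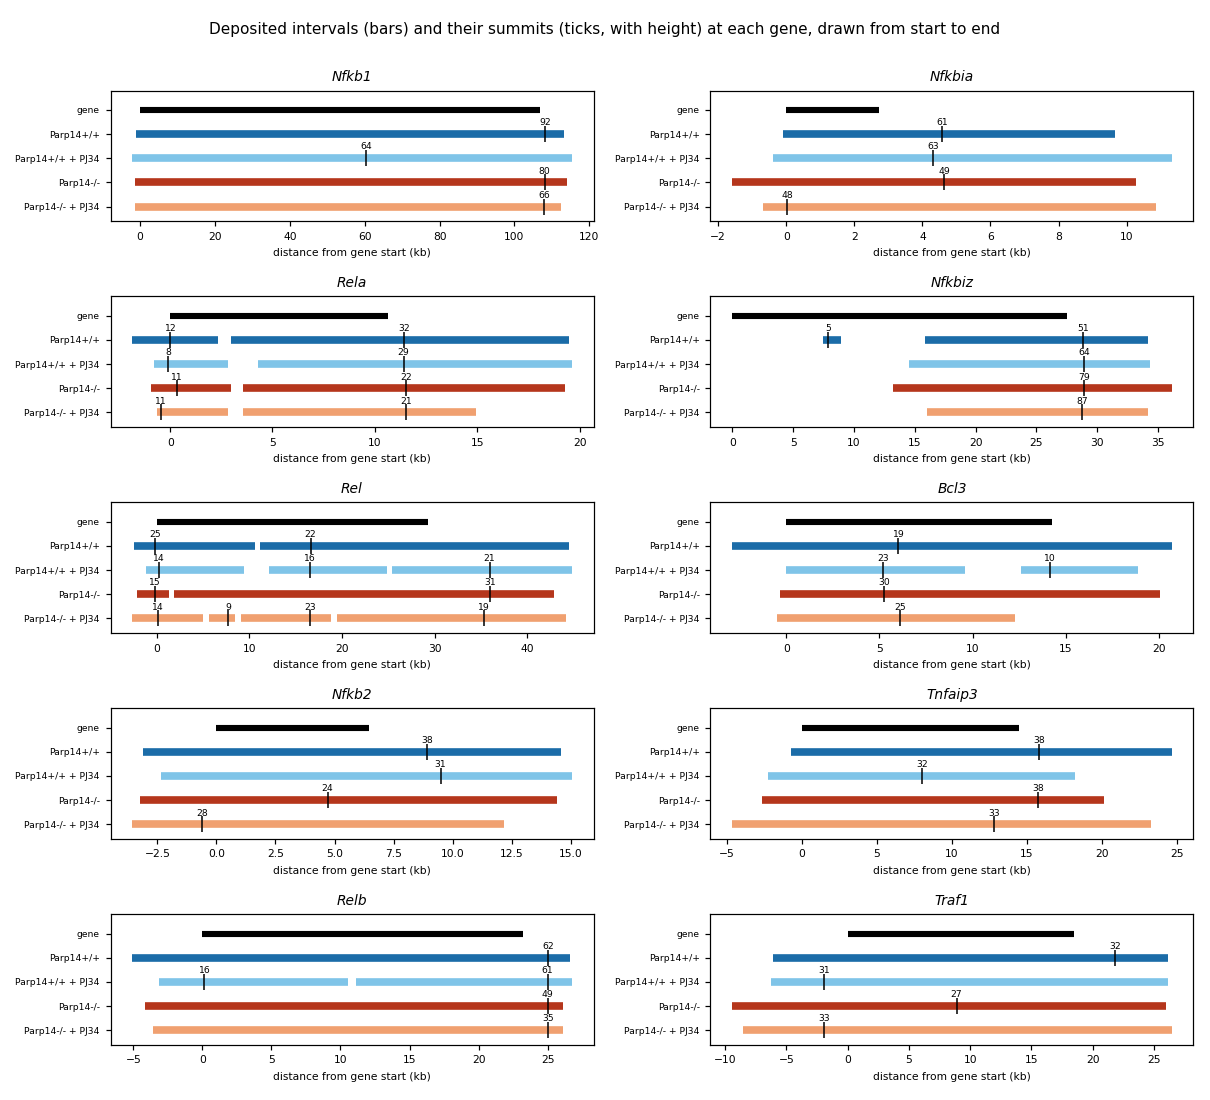
Deposited intervals (coloured bars, 1 row per library) and their summits (black ticks, with the height in fragments) at each of the 10 genes, on an axis in kb from the gene start, with the gene as a black bar. In Parp14+/+ the highest summit lies past the gene end in 8 of the 10 genes and in Parp14-/- + PJ34 in 4, Nfkbiz has no interval at its start, and the Nfkb1 summit of Parp14+/+ + PJ34 lies inside the gene.

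Beyond single genes, the position of the summits, which the choice of genes did not use, was set beside that of all genes. The highest summit lay past the annotated gene end in 8 of the 10 genes in Parp14+/+ and 6 with PJ34, and in 7 in Parp14-/- and 4 with PJ34. Among all genes overlapped by an interval the share was 39.3%, 33.9%, 31.2% and 31.4% in the same order, over 4962 to 6153 genes. The count in Parp14-/- + PJ34 is near that share. Some of the summits past the end lay in a neighbouring gene, Clasrp for Relb and Psd for Nfkb2, so the position is not a trait shared by the group. Intervals covered at least 90% of the gene in 9, 6, 9 and 8 of the 10 genes, against 27.7%, 22.4%, 24.0% and 23.9% of all overlapped genes. Tall genes have longer intervals, and the comparison was not matched for height. The summits of Rela, Relb, Nfkbiz and Bcl3 kept within 1 kb over the 4 libraries, while those of the other 6 genes spread over 4608 to 47872 bases.

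For the whole group, the ratios between the untreated genotypes lay on both sides of 1. The Parp14+/+ to Parp14-/- ratio was above 1 in 6 of the 10 genes, below 1 in 3 and 1.00 in Tnfaip3, from 0.633 in Bcl3 to 1.58 in Nfkb2. Of all genes 49.0% lay above 1 and 42.6% below. The median over the 10 genes was 1.17, against 1.00 over all genes. One gene, Nfkb2, was called higher in Parp14+/+, where 11% of all genes were, and 1 gene, Bcl3, was called lower, where 8.99% were. The counting interval lay off 1 for Nfkbiz alone, and for 3.1% of all genes. Counting intervals are wider at low heights, and most genes were lower than the members. This share is therefore not matched for height, here and in the comparisons below. Among the 719 genes with a summed height of at least 50 fragments, 16.4% were called in either direction. The counts of 1 in 10 are near these backgrounds and are no result about the group. The split of the 10 genes about 1 was not tested.

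In the presence of PJ34, Relb was the 1 gene of the group past the limits between the genotypes, and after scaling Nfkbiz (0.676) was past them too. The Parp14+/+ + PJ34 to Parp14-/- + PJ34 ratio ran from 0.775 in Nfkbiz to 1.74 in Relb, above 1 in 4 genes and below 1 in 6. Of all genes 63.9% lay above 1 and 28.4% below. The median was 0.970, while that of all genes was 1.14, and after scaling to the median of all genes it was 0.845. Relb was the 1 gene called higher in Parp14+/+ + PJ34, against 19.8% of all genes. Its interval was the only one of the group to lie off 1, against 3.48% of all genes, a share not matched for height. No gene of the group was called lower, where 4.58% of all genes were, and 22.4% of the 689 genes with a summed height of at least 50 were called in either direction.

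PJ34 in Parp14+/+ cells gave ratios of untreated to treated heights from 0.826 in Bcl3 to 1.44 in Nfkb1, above 1 in 7 genes and below 1 in 3, namely Nfkbia, Nfkbiz and Bcl3. Of all genes 38.4% lay above 1 and 52.7% below. The median was 1.11 and that of all genes 0.958. Nfkb1 was the 1 gene called higher in the untreated library, against 6.23% of all genes, and none was called lower, against 9.23%. Its counting interval was the one that lay off 1, as for 1.61% of all genes, a share not matched for height. Of the 707 tall genes (summed height of at least 50) 9.62% were called in either direction.

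PJ34 in Parp14-/- cells gave no call. Ratios of untreated to treated heights ran from 0.818 in Traf1 to 1.4 in Relb, above 1 in 7 genes and below 1 in 3, with a median of 1.09 against 1.08 over all genes. Of all genes 57.4% lay above 1 and 32.6% below. No counting interval of the 10 genes lay off 1, where 1.66% of all genes did. Over all genes 11.3% were called higher in untreated Parp14-/- and 4.01% lower, and of the 640 tall genes 11.9% were called in either direction. Each of the 4 libraries enters 2 of these 4 comparisons, so the comparisons are not independent of each other.

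**Figure D4:**
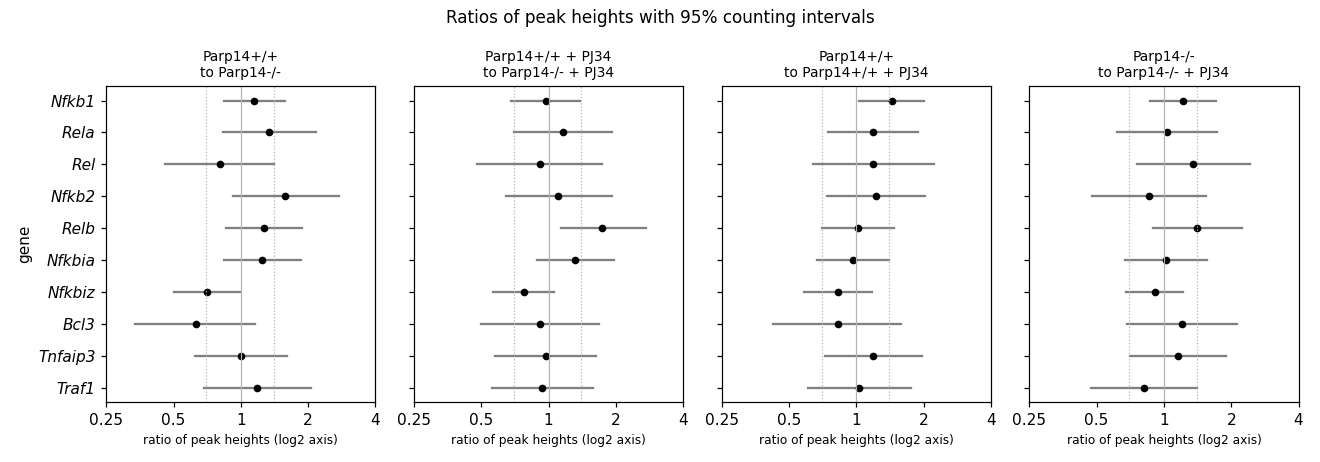
Ratios of average peak heights (points, log2 axis) with 95% counting intervals (bars) of the 10 genes in the 4 comparisons, with dotted lines at 0.7 and 1.4 and a grey line at 1. The intervals that clear 1 are those of Nfkbiz in the untreated genotypes (0.504 to 0.988), Relb with PJ34 (1.13 to 2.72) and Nfkb1 in Parp14+/+ with and without PJ34 (1.03 to 2.01).

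**Figure D5:**
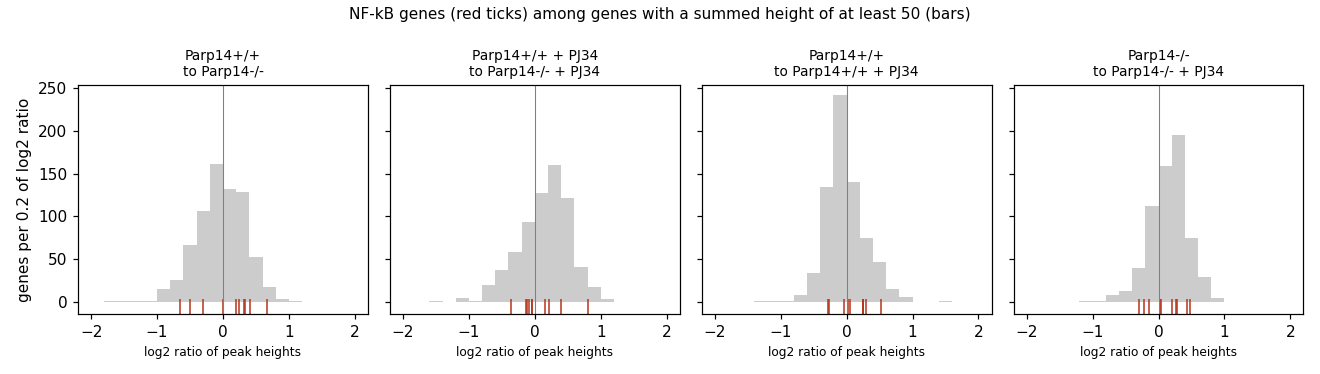
Distribution of the log2 ratio of heights over genes with a summed height of at least 50 fragments (grey bars, number of genes per 0.2 of log2 ratio) with the 10 genes as red ticks below, in the 4 comparisons. The ticks lie within the range of the bars in each comparison, with Nfkb2 (ratio 1.58, untreated genotypes) and Relb (1.74, with PJ34) toward the upper end, and the bars of the PJ34-treated genotypes sit to the right of 0, around the median ratio of 1.15.

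Other genes of the pathway were taken from lists of 58 genes in 7 functional groups, of which 57 had a correctly placed line, all but Tnfrsf1a, and 55 an interval in at least 1 library. Neighbours that share an active region were listed for the 10 members only, so heights of pathway genes may include signal of neighbouring genes. In the untreated genotypes 1 of the 55 was called higher in Parp14+/+ and 10 lower, against 11% and 8.99% of all genes, with a median ratio of 0.969. With PJ34 the counts were 7 higher and 5 lower, against 19.8% and 4.58%, with a median of 1.02. For PJ34 in Parp14+/+ they were 4 higher and 2 lower in the untreated library, against 6.23% and 9.23%, with a median of 0.952. The higher calls include Tnfrsf4 and Tnfrsf18, which lie close together on chromosome 4. They have identical values in the 4 libraries and are not separate measurements. For PJ34 in Parp14-/- they were 7 and 2, against 11.3% and 4.01%, with a median of 1.15. Of the 10 calls below 0.7, Tnf, Lta and Ltb share 1 active region and so are 1 measurement, at 16, 18, 26 and 32 fragments in Parp14+/+, Parp14+/+ + PJ34, Parp14-/- and Parp14-/- + PJ34.

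Calls in the machinery that passes signals to NF-kB were counted between the untreated genotypes, where 11% of all genes were called higher in Parp14+/+ and 8.99% lower. At those shares few calls are due in lists this small, so the counts are no result about the lists. No gene of the other IkB proteins (4 genes) or of the IKK complex and upstream kinases (8 genes) was called, and among the receptor-proximal adaptors 1 of 11 was, in the direction lower in Parp14+/+. Among 9 genes of ubiquitin editing, 1 was called higher and none lower. With PJ34, 3 of these 9 were called higher in Parp14+/+, against 19.8% of all genes. Of them Otud7b, which encodes a deubiquitinase that restrains the alternative pathway, had heights of 9.4, 10.6, 8.4 and 6 fragments in the 4 libraries in the order above and a PJ34-treated genotype ratio of 1.77 (1.11 to 2.86). Rnf31, which encodes the catalytic subunit of the linear ubiquitin ligase, had heights of 41.5, 36, 57 and 37 fragments, and its untreated Parp14-/- library stood alone. Its untreated genotype ratio was 0.728 (0.542 to 0.975) and its PJ34 ratio in Parp14-/- was 1.54 (1.14 to 2.09).

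Ligands and receptors of the TNF family gave calls between the genotypes at 1 locus. Of 6 ligands, 3 were called lower in Parp14+/+ in both genotype comparisons, and these are the 3 that share 1 region. Tnfsf8, which encodes CD30 ligand, was the tallest of them at 131, 132, 100 and 120 fragments, with an untreated genotype ratio of 1.31 (1.00 to 1.72) and 1.10 (0.853 to 1.42) with PJ34. None of 5 receptors was called between the genotypes. Of all genes 11% were called higher in Parp14+/+ and 8.99% lower untreated, and 19.8% and 4.58% with PJ34.

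Known NF-kB targets of lymphocytes had untreated genotype ratios below 1 in 10 of 12 genes, against 42.6% of all genes. Of the 12, 6 were called lower in Parp14+/+ than in Parp14-/-, against 8.99% of all genes, and none higher, against 11%. Of tall genes 16.4% were called in either direction, and the list was chosen with earlier results of these data known. The median ratio of the 12 genes was 0.698, against 1.00 over all genes. With PJ34 the counts were 2 lower, against 4.58%, and 2 higher, against 19.8%, with a median of 0.999. The largest difference was in Cd69, an early activation marker, at 29 fragments in Parp14+/+ and 41 with PJ34, against 88 in Parp14-/- and 86 with PJ34. Both of its genotype ratios were past the limit, 0.330 (0.209 to 0.506) untreated and 0.477 (0.320 to 0.699) with PJ34.

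Junb, which encodes an AP-1 subunit, stood at 65, 73, 125 and 90 fragments, with an untreated genotype ratio of 0.520 (0.379 to 0.707) and 0.811 (0.587 to 1.12) with PJ34. Myc stood at 40, 42, 71 and 62 fragments, with ratios of 0.563 (0.373 to 0.842) and 0.677 (0.447 to 1.02). Gadd45b, a stress-induced survival gene, stood at 47, 48, 71 and 61 fragments, with ratios of 0.662 (0.448 to 0.970) and 0.787 (0.528 to 1.17). In these 4 genes, as in Nfkbiz and Bcl3, both Parp14-/- libraries were above both Parp14+/+ libraries. In the members Rela, Nfkb2, Relb and Nfkbia the order was the reverse. Cd69, Junb, Myc and Gadd45b were named because a genotype interval excluded 1, which favours such a separation. The share of all genes with this separation was not computed, so it is no result about the group. Il2ra, which encodes CD25, was at 112, 138, 145 and 112 fragments, with an untreated ratio of 0.772 (0.598 to 0.995) and 1.23 (0.953 to 1.60) with PJ34, so its libraries did not separate by genotype. Several of these genes respond to other factors than NF-kB, and no measure of NF-kB activity was made.

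The 3 genes outside the group whose log2 profile over the 4 libraries lay closest to the mean profile of the 10 genes were Malt1, Snapc5 and Rpl4, among 238 genes with a height of at least 50 in 1 library. Malt1, at a distance of 0.127 in log2 units, had heights of 60, 50, 56 and 49 fragments. Snapc5 and Rpl4 had the same values, 77, 70, 65 and 65, at a distance of 0.130. Both lie on chromosome 9, and with identical values in all 4 libraries they may be 1 measurement. The 4 libraries give 4 points for such a profile, and nothing about common control was measured.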

How the data were processed

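RNA Polymerase II phosphoserine 2 ChIP-Seq of 4 Th2 conditions and Input was used. The authors used ELAND to map reads to mm9, discarded duplicate reads, cut libraries to equal alignments, and called intervals per library against Input with SICER. They deposited the signal as an average peak height per gene and as the summit height of each interval, and it was not divided by Input. The table holds 8 further per-sample columns that belong to libraries not analysed here. Genes were accepted by name and mm9 position. Ratios of heights used no pseudocount. Calls needed a ratio above 1.4 or below 0.7 and an interval in the higher library. The 95% intervals treat the heights, which are maxima of a pile-up, as counts, and are approximate. Promoters and annotation came from NCBIM37 and GENCODE vM1. Named genes were the 10 members, Parp14, neighbours in a shared active region, listed pathway genes whose genotype interval excluded 1, and the 3 nearest profiles. Tnf, Lta, Ltb, Tnfrsf4, Tnfrsf18 and the marker genes were added because counts or checks rest on them. The members and lists were chosen with earlier results of these data known. Alternatives covered scaling, the limits, the interval requirement, a height minimum and summits in place of averages. The result of 1 marker gene is not reported here. Calls were tried on simulated independent counts, with an interval assumed in every gene and changes placed only in genes with a summed height of at least 50. The real heights are maxima of a pile-up, so this checks the working of the rule and not the calls made here. Python 3.11.15, numpy 2.4.6, pandas 2.3.3 and scipy 1.17.1 were used.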

Additional observations from a re-analysis of the deposited data

Results flagged for a closer look

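Some members had ratios on opposite sides of 1 under the same contrast in the 2 settings where it was measured, each setting with 1 library per condition. None of these differences was tested, and each of these ratios has a counting interval that holds 1. The Parp14+/+ to Parp14-/- ratio of Nfkb1 was 1.15 without and 0.970 with PJ34, and that of Traf1 was 1.19 and 0.939. The ratio of untreated to PJ34-treated heights was 1.23 in Parp14+/+ and 0.857 in Parp14-/- for Nfkb2, 0.968 and 1.02 for Nfkbia, 0.826 and 1.2 for Bcl3, and 1.03 and 0.818 for Traf1.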

How the results depend on the processing

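No paired analysis was possible because each condition has 1 library. The counts of calls depended on the limit, while all 80 recomputed member ratios stayed within their counting intervals. Of these, 4 moved to the other side of 1 and none of the 4 was a called ratio: under scaling, Nfkb2 between the PJ34-treated genotypes (0.965), Nfkbia for PJ34 in Parp14+/+ (1.01) and in Parp14-/- (0.928), and Rela for PJ34 in Parp14-/- (0.938). With limits of 2 and 0.5, 0 members were called in each comparison, and 1, 1, 0 and 0 pathway genes (in the order untreated genotypes, PJ34-treated genotypes, PJ34 in Parp14+/+, PJ34 in Parp14-/-) where 11, 12, 6 and 9 had been. Adding the bands from 1.2 to 1.4 and 0.7 to 0.83 at a height of at least 10 raised the members called from 2, 1, 1 and 0 to 7, 3, 4 and 5, and the pathway genes to 26, 23, 19 and 21. With the highest summit at the gene in place of the average, 4 members were called between the untreated genotypes, and 22, 21, 16 and 15 pathway genes. Requiring a summed height of 50 left 0 members called between the untreated genotypes and 4, 3, 3 and 3 pathway genes. Scaling the libraries to a median ratio of 1 moved the PJ34-treated genotype median of the members to 0.845 and the members called there to 2. The cause was not tested beyond the construction of each alternative. Except for the height minimum, the share of all genes called under each alternative is not given here. The counts under the alternatives are therefore no result about the members or the lists. Equal depth and heights of 16 to 92 fragments left a counting interval that held 1 in all but 3 of the 40 member ratios.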
